A study of Mus musculus with 16 samples.

Results

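The genes described here encode the ubiquitin and proteasome system: proteasome subunits, ubiquitin-activating enzymes (E1), ubiquitin-conjugating enzymes (E2) and ubiquitin-specific proteases. They were chosen by symbol as every gene on the array platform whose name starts with Psma, Psmb, Psmc, Psmd, Psme, Ube2, Usp or Uba followed by a digit. There were 88 such genes, measured by 128 probes, among 9026 named genes measured by 12760 probes. The set held 14 core subunits (Psma and most Psmb), 18 regulatory genes (Psmc, Psmd, Psme3 and Psme4), 5 immunoproteasome genes (Psmb8, Psmb9, Psmb10, Psme1 and Psme2) and 49 ubiquitin enzymes, namely 1 E1 (Uba6), 20 E2 genes and 28 Usp genes. The symbol rule also took in 2 genes, Psmc3ip and Psme3ip1, that are named after a proteasome gene but encode no subunit.

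The study measured brain and liver RNA of 4 male HdhQ111/+ mice, heterozygous for a knock-in allele that gives the mouse huntingtin gene an expanded CAG repeat, in the C57BL/6J strain, aged 18 weeks. The comparison RNA was a pool from 4 wildtype C57BL/6J males of the same age, 1 pool for each tissue. Each RNA was hybridised together with the pool on a 2-colour cDNA array, and again with the dyes exchanged, which gave 2 arrays per mouse and tissue and 16 arrays in all. Brain and liver came from the same 4 HdhQ111/+ animals, and the allele is carried in every cell, so neither a promoter nor a Cre line limits where it acts.

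Proteins are marked for degradation when an E1 activates ubiquitin, an E2 carries it, and an E3 ligase directs it to the substrate. The proteasome then degrades the marked protein inside a barrel of alpha and beta rings, the core particle, whose ends are capped by a regulatory particle of ATPases and other subunits that bind, unfold and feed in the substrate. Ubiquitin-specific proteases remove the mark. Under interferon, cells replace the catalytic beta subunits Psmb5, Psmb6 and Psmb7 with Psmb8, Psmb9 and Psmb10 in that order, and the cap made of Psme1 and Psme2 is induced, which changes the peptides made for antigen presentation. The system has long been studied in Huntington's disease because ubiquitin and proteasome subunits are found in the inclusions that mutant huntingtin forms.

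All values are log2 ratios, likely HdhQ111 over the wildtype pool, where 0 means equal signal and 1 a 2-fold difference, given as the mean and SD over 4 mice unless another number is stated. The direction of the ratio and the log base are not given by any header, so higher and lower are used on that likely basis. The files hold ratios and no levels, so whether each tissue expressed a gene, or its defining markers, could not be checked, and in bulk tissue fewer cells of a type and less RNA per cell cannot be told apart. Symbols were placed 11 rows away from the values in the deposited tables. No source states this offset, and every value given for a gene depends on it. With symbols left on their own rows, the liver-minus-brain median of the core genes was 0.11 in place of -0.20. The offset was found in earlier work from these data, in part because proteasome probes scattered little at it, so a small spread of these genes is not a result. The median over all genes differed between mice, most in brain, where it was -0.10, 0.0080, 0.15 and 0.038 in mice 1 to 4, against -0.073, -0.042, -0.022 and -0.0043 in liver. Mouse 3 thus stood above the others over the whole brain array, and without it the all-gene median in brain was -0.017. Pituitary hormone genes were far lower in the brain of all mice (median of 5 genes -2.75), and the part of dissection in the brain values was not tested.

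No gene of the ubiquitin and proteasome system passed the test after adjustment over all genes, in brain, in liver or in the difference between them (limma, Benjamini-Hochberg adjusted p under 0.05). The count was 0 of 85 in brain, where 0.035% of all 8567 genes passed, 0 of 88 in liver, where 0% of 8803 passed, and 0 of 85 for liver minus brain, where 0.0236% of 8483 passed. At an unadjusted p under 0.05, 1 member was higher in brain (background 1.89%) and 0 were lower (background 2.03%). In liver 0 were higher (background 3%) and 5 were lower (background 5.24%). For liver minus brain 0 were higher (background 2.61%) and 7 were lower (background 4.61%). The 5 members lower in liver are 5.68% of those tested there, which is near the background, and the 7 members of the difference are 8.24%. Single mice decide these counts. The count higher in brain was 5 without mouse 1 and 0 without mouse 4. The count lower in liver was 0 without mouse 2 and 3 without mouse 1 or mouse 3. For liver minus brain the lower count was 1 without mouse 2, 2 without mouse 3 and 4 without mouse 4.

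Most member means were small, as were those of most genes. A mean within 0.25 of 0 was found for 79 of 85 members in brain (92.9%, background 82.0%). In liver it was found for 76 of 88 (86.4%, background 80.65%). The choice of offset can have favoured these counts. Means over 0.5 in size were seen for 2 members in brain, Psmd10 and Usp26 (background 4.59%). In liver they were seen for 2, Psmd14 and Uba6 (background 3.02%). Psmd14, Usp21 and Usp50 had too few mice in brain for a test.

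**Figure D1:**
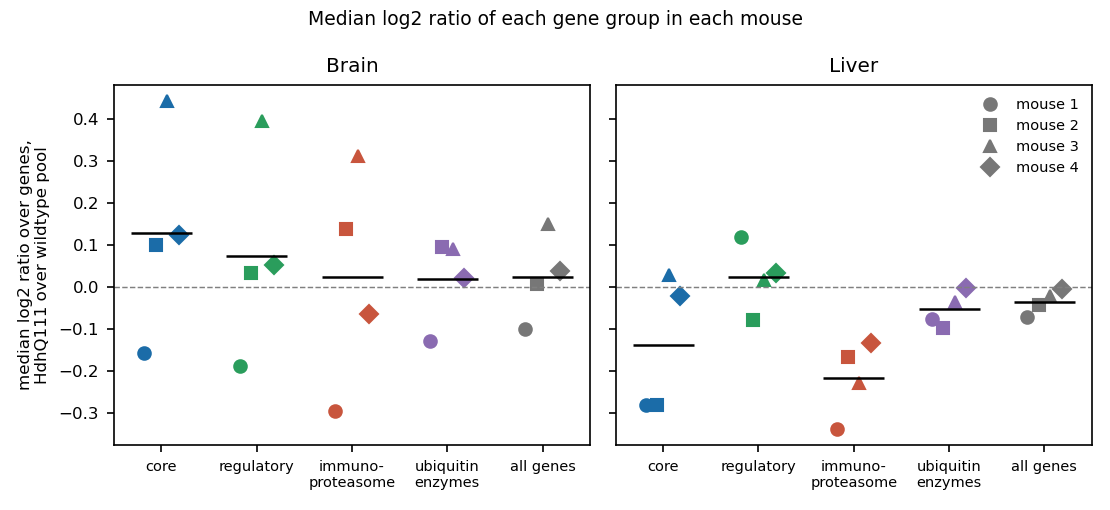
Median log2 ratio (y axis, HdhQ111 over wildtype pool) over the genes of each group in each of 4 mice, brain on the left and liver on the right, with the mean of the 4 mice as a black line and all genes in grey. The immunoproteasome medians in liver lie between -0.34 and -0.13, below the all-gene median in every mouse, whereas in brain the medians of every group span 0.

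The core particle leaned upward in brain and downward in liver. In brain the median over the 14 core genes was 0.11, and 12 of 14 had a mean above 0, where 56.7% of all genes did. In liver the median was -0.10 and 12 of 14 had a mean below 0, where 56.6% of all genes did. For liver minus brain the median was -0.20, against -0.048 over all genes, and 12 of 14 differences were below 0 (background 57.4%). These counts describe genes that share mice and arrays and are not separate observations. The offset was found in part because proteasome probes scattered little at it, which can have favoured shared signs. The shares of all genes are thus no fair background for these counts, nor for those of other proteasome genes below.

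The core median differed between mice. In brain it was -0.16 in mouse 1, 0.099 in mouse 2, 0.44 in mouse 3 and 0.12 in mouse 4. Mouse 3 was highest and mouse 1 was below 0, the same order as the all-gene medians. Measured from the all-gene median of the same mouse, the core genes stood at -0.057, 0.091, 0.29 and 0.086, which leaves 3 of 4 mice above. Without mouse 3, the core median in brain was -0.012 and 6 of 13 tested core genes were above 0. In liver the core median was -0.28 in mouse 1 and -0.28 in mouse 2, but 0.028 in mouse 3 and -0.023 in mouse 4. The median over all core genes was thus low in 2 of the 4 mice. The alpha subunits had this pattern, with liver medians of -0.38, -0.30, 0.052 and 0.0023 in mice 1 to 4. Those of the beta subunits were -0.12, -0.20, -0.14 and -0.023, below 0 in all 4 mice. No core gene was above 0 in all 4 mice in brain, among 13 with 4 values.

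The liver value of the core genes also went with the dye. With HdhQ111 RNA in Cy5 the median in liver was 0.058, and with it in Cy3 it was -0.28. The brain medians were 0.25 with Cy5 and -0.0024 with Cy3. In liver 11 of 14 core genes were above 0 in Cy5 and below 0 in Cy3, and 1 of 14 was below 0 in both. Over all genes the medians were -0.0022 and -0.059 in liver and 0.096 and -0.052 in brain. The mean of both orientations cancels a dye effect of equal size on both, and the part of a dye effect that is left over was not tested.

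Psmb3, a beta subunit of the core without protease activity, had the lowest liver mean of the core genes. It was at -0.26, -0.31, -0.31 and -0.086 in the liver of mice 1 to 4. All 4 mice were below 0, with a mean of -0.24 ± 0.11 (95% interval -0.46 to -0.021), or 15.3% less signal than the pool. The unadjusted p was 0.0366 and the limma adjusted p 0.576. Its liver value was about the same in both dye orientations, at -0.23 in Cy5 and -0.25 in Cy3. In brain Psmb3 was at -0.063, 0.45, 0.46 and 0.15, with 3 mice above 0. Liver minus brain was -0.49 ± 0.16 (SE), with an unadjusted p of 0.0136 and a limma adjusted p of 0.677. Without mouse 3 the difference was -0.39, with an unadjusted p of 0.0683, and without mouse 2 the p was 0.0837. The brain mean was 0.25 ± 0.25 (unadjusted p 0.121), and leaving out mice 1 to 4 in turn gave unadjusted p values of 0.0450, 0.337, 0.276 and 0.179.

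Psmb4, another structural beta subunit, was measured by 2 probes. Its liver values were -0.36, -0.30, -0.25 and -0.031, all below 0, with a mean of -0.23 ± 0.14 and an unadjusted p of 0.0506. The 2 dye orientations differed widely, at 0.12 in Cy5 and -0.59 in Cy3. The brain values were -0.062, 0.16, 0.63 and 0.18, and liver minus brain was -0.46 ± 0.18 (SE; unadjusted p 0.0257, limma adjusted p 0.677). Without mouse 3 it was -0.32 (unadjusted p 0.0950).

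The 3 constitutive catalytic subunits, which the immunoproteasome replaces, had means above 0 in brain and below 0 in liver, as most core genes did. Psmb5, the chymotrypsin-like subunit, was at 0.13 ± 0.39 in brain and -0.072 ± 0.14 in liver. Psmb6, the caspase-like subunit, was at 0.098 ± 0.25 in brain and -0.13 ± 0.097 in liver, where its mice gave -0.050, -0.12, -0.27 and -0.091. Psmb7, the trypsin-like subunit, was at 0.079 ± 0.25 and -0.060 ± 0.044, with all 4 liver values between -0.12 and -0.015. Psmb6 and Psmb7 were thus below 0 in every liver, as were Psmb3 and Psmb4, which makes 4 of 14 core genes, where 14.2% of all genes with 4 values were below 0 in all 4 mice. None of the 3 catalytic subunits had an unadjusted p under 0.05 in brain, liver or the difference.

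Among the alpha subunits, which form the outer rings, 5 of 6 had a mean above 0 in brain and 5 of 6 below 0 in liver. Psma5 was the exception in liver, at 0.84, 0.14, 0.093 and -0.14. Its mean of 0.23 ± 0.42 was the highest of the core genes there, and mouse 1 was the highest by far. Psma1 in liver was at -0.39, -0.29, 0.039 and -0.22 (mean -0.21 ± 0.18, unadjusted p 0.0860). Psma2 had a liver-minus-brain difference of -0.37 ± 0.18 (SE; unadjusted p 0.0673, and 0.0456 with the mouse as a block). In brain the highest core mean was that of Psmb11, the thymus form of the chymotrypsin-like subunit, at 0.25 ± 0.20 over 3 mice, and the lowest that of Psmb2, at -0.10 ± 0.36. Psmb2 also had the highest liver-minus-brain difference of the core, at 0.12 ± 0.20 (SE).

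**Figure D2:**
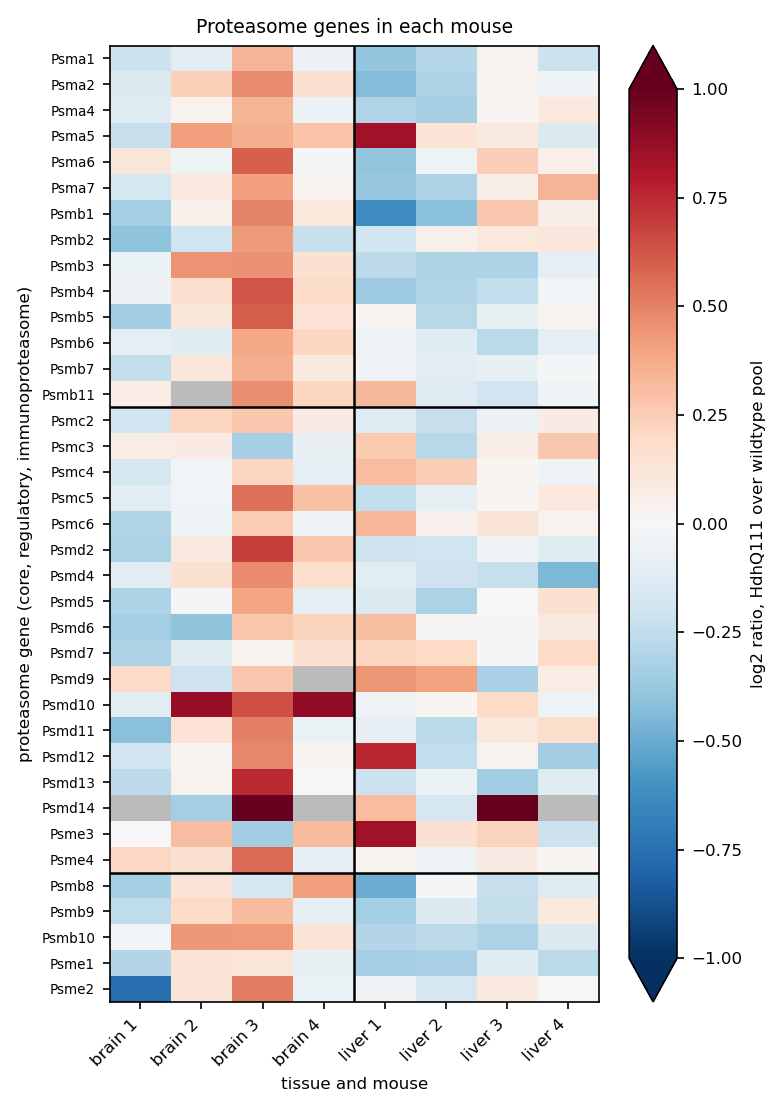
Log2 ratio (colour, from -1 to 1, HdhQ111 over wildtype pool) of 37 proteasome genes (rows, grouped as core, regulatory and immunoproteasome) in brain and liver of mice 1 to 4 (columns), with missing values in grey. Most rows are red in the brain of mouse 3 and blue in the brain of mouse 1, and Psmb3, Psmb10 and Psme1 are blue in all 4 livers.

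The regulatory genes had medians above 0 in both tissues. Over 18 genes the liver median was 0.039, with 11 above 0 and 7 below, and in brain the median was 0.085 over 17 genes, with 11 above 0. Mouse medians were -0.19, 0.033, 0.39 and 0.053 in brain and 0.12, -0.080, 0.016 and 0.034 in liver. Mouse 3 was again highest in brain, and without it the brain median was -0.016, with 8 of 16 tested genes above 0. The liver median without it was -0.0013. In liver the regulatory median was above the core median in 3 of 4 mice, by 0.16 ± 0.18, and the spread of that gap is as large as the gap.

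Within the regulatory particle, liver medians are given by role. The 5 ATPases, which unfold substrates, had a median of 0.079, and the 6 lid subunits, which include the deubiquitinase Psmd14, had 0.076. Both non-ATPase base subunits, Psmd2 and Psmd4, were below 0, with a median of -0.20. Psmc3, an ATPase, had the lowest regulatory mean in brain, at -0.064 ± 0.19. Psmd7, a lid subunit that partners Psmd14, had the highest liver-minus-brain difference of the regulatory genes, at 0.21 ± 0.15 (SE). Psmd13, a lid subunit, was at -0.22, -0.058, -0.35 and -0.12 in liver, below 0 in all 4 mice, with a mean of -0.19 ± 0.13 (unadjusted p 0.0926).

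Psmd4, the subunit that binds ubiquitin chains, was at -0.12, -0.20, -0.23 and -0.45 in liver. All 4 mice were below 0, and the mean was -0.25 ± 0.14 (unadjusted p 0.0395, limma adjusted p 0.576). It was at 0.090 in Cy5 and -0.59 in Cy3, so the sign differed between dye orientations. The brains were at -0.11, 0.15, 0.48 and 0.17, and liver minus brain was -0.42 ± 0.16 (SE; unadjusted p 0.0279, and 0.0509 with the mouse as a block). Without mouse 3 that difference was -0.33, with an unadjusted p of 0.0972. Psmd2, a scaffold of the base, was at -0.20, -0.20, -0.036 and -0.12 in liver (mean -0.14 ± 0.080), also below 0 in all mice, and at 0.18 ± 0.42 in brain.

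Psmd10, known as gankyrin, is an assembly chaperone of the base that also binds cell cycle regulators. It was the member with the smallest p in brain, at -0.11, 0.87, 0.64 and 0.89. Mice 2, 3 and 4 were well above 0 and mouse 1 was not. The mean was 0.57 ± 0.47 (95% interval 0.11 to 1.04), a 1.49-fold ratio, with an unadjusted p of 0.0229 and a limma adjusted p of 0.999. Both dye orientations were above 0, at 0.71 in Cy5 and 0.44 in Cy3. In liver it was at -0.038, 0.020, 0.20 and -0.049, and liver minus brain was -0.54 ± 0.23 (SE; unadjusted p 0.0380, limma adjusted p 0.677). Psmd10 rested on 1 probe. Without mouse 1 its brain mean was 0.80 (unadjusted p 0.00121), and without mouse 2, 3 or 4 its brain p was between 0.0666 and 0.0724.

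The other caps, Psme3 and Psme4, had no liver mean below 0. Psme3, a nuclear activator, was at 0.84, 0.15, 0.23 and -0.22 in liver (mean 0.25 ± 0.44, unadjusted p 0.202), highest in mouse 1. Psme4 had a liver mean of 0.020, and in brain it was at 0.21, 0.15, 0.56 and -0.084 (mean 0.21 ± 0.27, unadjusted p 0.189). Psmd14 had the highest regulatory mean in liver, 0.58 ± 0.91 over 3 mice. Its values there were 0.31, -0.17 and 1.59, so mouse 3 held it.

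The immunoproteasome genes had a median of -0.22 in liver and 0.012 in brain. In liver 5 of 5 means were below 0, where 56.6% of all genes were, 2 of 5 had an unadjusted p under 0.05 (background 5.24%), and 0 passed adjustment. In brain 3 of 5 were above 0. Psmb8, Psmb10 and Psme1 were below 0 in all 4 livers, which is 3 of 5, where 14.2% of all genes were. The choice of offset can have favoured shared signs here too. The liver medians of mice 1 to 4 were -0.34, -0.17, -0.23 and -0.13. Each lay below the all-gene median of its mouse, by 0.18 on average (-0.18 ± 0.068), and below the ubiquitin enzyme median in all 4 mice (-0.16 ± 0.083). Against the core genes the gap was -0.077 ± 0.15, with 1 of 4 mice on the other side. In brain the medians were -0.30, 0.14, 0.31 and -0.064, with mice on both sides of 0.

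By dye orientation, the liver median of the immunoproteasome genes was -0.17 in Cy5 and -0.30 in Cy3, and 4 of 5 were below 0 in both, against 1 of 14 core genes and 21.0% of all genes. The exception was Psmb9, at 0.054 in Cy5 and -0.36 in Cy3. Turning the sign of the Cy3 arrays, in case the deposited ratios were not all turned one way, gave a median of 0.051, so the low median rests on the direction described above.

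Psmb10, the trypsin-like subunit of the immunoproteasome, was at -0.29, -0.26, -0.31 and -0.14 in liver. All 4 mice were below 0. Its mean was -0.25 ± 0.075 (95% interval -0.46 to -0.041), or 15.9% less signal than the pool, with an unadjusted p of 0.0266 and a limma adjusted p of 0.576. In brain it was at -0.026, 0.44, 0.43 and 0.13 (mean 0.24 ± 0.23), and all 4 brains lay above all 4 livers. Liver minus brain was -0.49 ± 0.15 (SE), the smallest p of any member for that difference (unadjusted 0.00975, limma adjusted 0.677, and 0.0227 unadjusted with the mouse as a block).

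Psme1, a subunit of the interferon-induced cap, was at -0.34, -0.32, -0.12 and -0.27 in liver. All mice were below 0, with a mean of -0.26 ± 0.098 (95% interval -0.48 to -0.046; unadjusted p 0.0249, limma adjusted p 0.576). The brain mean was -0.027 ± 0.20. Liver minus brain was -0.24 ± 0.15 (SE), with an unadjusted p of 0.148.

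Its partner Psme2 was near 0 in liver. It was at -0.036, -0.17, 0.095 and 0.00050 in liver (mean -0.027 ± 0.11, 95% interval -0.25 to 0.19) and at -0.76, 0.13, 0.52 and -0.065 in brain. Psmb8, the chymotrypsin-like subunit, was at -0.50, -0.0090, -0.23 and -0.13 in liver (mean -0.22 ± 0.21, unadjusted p 0.0952) and at 0.012 ± 0.33 in brain. Psmb9, the caspase-like subunit, was at -0.34, -0.13, -0.24 and 0.098 in liver (mean -0.15 ± 0.19, unadjusted p 0.193) and at 0.037 ± 0.26 in brain. Without mouse 1, the liver median of the 5 genes was -0.12.

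Genes that work with the immunoproteasome were read from a separate list of antigen presentation partners. In liver 6 of 7 were below 0 with a median of -0.24, 2 of them at an unadjusted p under 0.05 (background 5.24%), and 0 passed adjustment. These were Tap1, which pumps peptides into the endoplasmic reticulum (-0.61 ± 0.41, unadjusted p 0.0111), and Calr, a chaperone of that compartment (-0.29 ± 0.22, unadjusted p 0.0424). Tap1 was below 0 in both dye orientations, and Calr was at 0.0505 in Cy5 and -0.63 in Cy3. Over the list the liver median was 0.049 in Cy5 and -0.43 in Cy3. In brain 4 of 8 were above 0, with a median of 0.021, and H2-K1, a class I heavy chain, was at 0.71 ± 0.52 with 0.053 in Cy5 and 1.38 in Cy3. The 6 tested regulators of proteasome genes had a liver median of -0.016. At an unadjusted p under 0.05 in limma, 1 was higher (background 3%) and 1 lower (background 5.24%). Irf9, a part of the interferon-activated factor, was at -0.46 ± 0.32, and Irf8, another interferon regulatory factor, at 0.29 ± 0.14.

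Marker genes of the cells in liver were read beside this. Microglia and macrophage markers had a liver median of -0.12 with 7 of 11 below 0 (background 56.6%). Their mouse medians were -0.19, -0.12, -0.083 and 0.0055. By dye, the median of this list was 0.13 in Cy5 and 0.016 in Cy3, neither below 0. Hepatocyte markers had a median of -0.19 with 6 of 7 below 0, at 0.12 in Cy5 and -0.48 in Cy3. Lymphocyte markers had 0.042 with 3 of 9 below 0, at 0.18 in Cy5 and -0.15 in Cy3. Endothelial markers were at -0.11, with -0.080 in Cy5 and -0.17 in Cy3. The part of these cells in the immunoproteasome values was not tested.

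**Figure D3:**
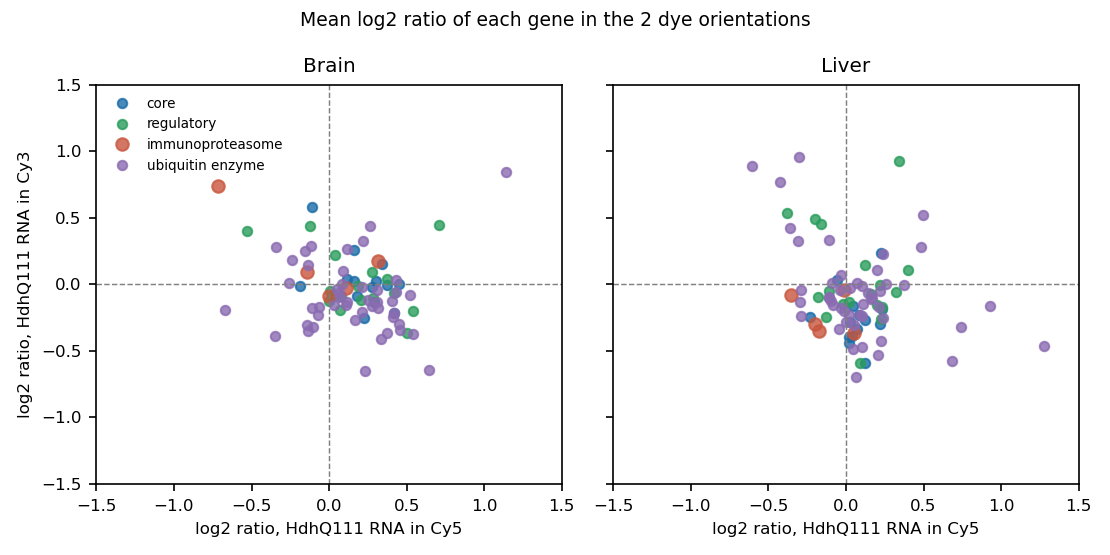
Mean log2 ratio of each tested gene when the HdhQ111 RNA carried Cy5 (x axis) or Cy3 (y axis), coloured by group, brain on the left and liver on the right. Genes whose sign holds in both orientations lie in the lower left or upper right of a panel, and in liver 4 of 5 immunoproteasome genes and 1 of 14 core genes lie in the lower left.

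The sequences before the start of the 5 members with a liver p under 0.05 are shown because these genes carry the liver values described, and the motifs searched belong to factors known to drive proteasome genes. They are RefSeq promoters of GRCm38.p6, from 250 bases before to 50 bases after the annotated start, on the strand of the gene. Capitals mark letters that match 1 of 3 searched patterns on either strand: TGACNNNGC for the antioxidant response element bound by Nrf1 and Nrf2, which drive proteasome genes, TTCNNNGAA for the STAT site, and GAAANNGAA for the interferon response element.
Psmb3, chr11:97703184-97703483, plus strand: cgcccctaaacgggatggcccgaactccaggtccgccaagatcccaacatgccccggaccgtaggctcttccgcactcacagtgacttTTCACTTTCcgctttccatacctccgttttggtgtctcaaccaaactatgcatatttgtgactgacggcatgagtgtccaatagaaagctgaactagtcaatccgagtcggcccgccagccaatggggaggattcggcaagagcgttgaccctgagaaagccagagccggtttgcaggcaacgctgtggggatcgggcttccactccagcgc
Psmd4, chr3:95042565-95042864, minus strand: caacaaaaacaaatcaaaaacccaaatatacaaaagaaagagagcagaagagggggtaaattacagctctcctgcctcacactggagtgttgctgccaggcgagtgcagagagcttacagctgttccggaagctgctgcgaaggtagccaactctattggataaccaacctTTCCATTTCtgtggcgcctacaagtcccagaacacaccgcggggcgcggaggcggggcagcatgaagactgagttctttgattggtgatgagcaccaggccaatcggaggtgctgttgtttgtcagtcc
Psmb10, chr8:105938343-105938642, minus strand: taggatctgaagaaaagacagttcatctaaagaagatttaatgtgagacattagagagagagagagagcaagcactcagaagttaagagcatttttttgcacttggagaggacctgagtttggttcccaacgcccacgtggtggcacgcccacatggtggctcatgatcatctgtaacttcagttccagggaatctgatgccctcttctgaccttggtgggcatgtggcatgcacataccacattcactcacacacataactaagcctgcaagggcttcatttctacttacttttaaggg
Psme1, chr14:55578244-55578543, plus strand: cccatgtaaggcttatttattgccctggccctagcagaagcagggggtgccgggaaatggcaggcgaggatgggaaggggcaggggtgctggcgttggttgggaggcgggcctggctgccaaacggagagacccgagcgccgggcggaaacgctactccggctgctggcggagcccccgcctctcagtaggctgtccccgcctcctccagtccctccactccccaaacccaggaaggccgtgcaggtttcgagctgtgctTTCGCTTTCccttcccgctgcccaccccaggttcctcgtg
Usp2, chr9:44084670-44084969, plus strand: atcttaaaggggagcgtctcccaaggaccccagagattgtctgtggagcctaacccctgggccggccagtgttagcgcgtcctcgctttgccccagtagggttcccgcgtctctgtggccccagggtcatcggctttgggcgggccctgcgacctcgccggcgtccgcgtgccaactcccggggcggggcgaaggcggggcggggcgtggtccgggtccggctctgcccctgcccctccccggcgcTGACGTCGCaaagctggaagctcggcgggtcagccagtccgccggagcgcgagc

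Psmb3, Psme1 and Psmd4 each held 1 interferon response element match, starting 162 bases before, 11 bases after and 79 bases before the annotated start. Usp2 held 1 antioxidant response element match that starts 4 bases before it, and Psmb10 held none of the 3 patterns. Of 84 promoters of 72 members, 16.7% held the antioxidant pattern, against 12.4% of all 32851 promoters. The interferon pattern was in 10.7% against 8.56%, and the STAT pattern in 7.14% against 8.30%. Among the regulatory genes 4 of 17 promoters held the antioxidant pattern, and among the core genes 2 of 12, those of Psmb5 and Psmb6. Among the immunoproteasome promoters 1 of 6 held the interferon pattern (Psme1) and 1 of 6 the STAT pattern (Psmb8). A match describes letters only.

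The ubiquitin enzymes as a group stood near all other genes. Their median was 0.044 in brain, with 28 of 47 above 0, and -0.0066 in liver, with 26 of 49 below 0, against 0.023 and -0.030 over all genes. Mouse medians were -0.13, 0.096, 0.090 and 0.022 in brain and -0.076, -0.098, -0.037 and -0.0015 in liver. In brain 4 of 44 with 4 values were above 0 in all 4 mice (background 6.1%) and 1 was below (312 of 7837 over all genes). In liver 7 of 47 were below 0 in all 4 mice (background 14.2%) and 1 was above (538 of 8251 over all genes). The orientation with HdhQ111 RNA in Cy5 gave 0.17 in brain and 0.064 in liver, and that with Cy3 gave -0.14 and -0.11.

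Uba6, which activates ubiquitin and the ubiquitin-like modifier FAT10, was the single E1 on the platform. In brain it was at -0.19, -0.15, -0.046 and -0.099, below 0 in all 4 mice and in both dye orientations, with a mean of -0.12 ± 0.063 (unadjusted p 0.317). In liver it was at 2.30, -0.87, 0.30 and 0.32. Its liver mean of 0.51 ± 1.31 was the highest of all ubiquitin enzymes and came from mouse 1.

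The E2 genes had medians of 0.024 in brain and -0.037 in liver over 20 genes, and none had an unadjusted p under 0.05 in either tissue. Ube2a, the RAD6 homologue that ubiquitinates PCNA and histone H2B, was measured by 2 probes. In brain it was at 0.048, 0.17, 0.29 and 0.38, and in liver at -0.039, -0.11, -0.21 and -0.032. Every brain was above 0 and every liver below, which held for 1 of 79 members with 8 values and 0.995% of all genes. Liver minus brain was -0.32 ± 0.14 (SE; unadjusted p 0.0442, limma adjusted p 0.677, and 0.0802 unadjusted with the mouse as a block). In both tissues Ube2a was above 0 in Cy5 and below 0 in Cy3. Its 2 probes had opposite signs in liver, at -0.30 and 0.10, and were both above 0 in brain, at 0.31 and 0.13.

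Ube2z, the E2 that takes ubiquitin from Uba6, had the highest E2 mean in both tissues, 0.23 ± 0.28 in brain and 0.23 ± 0.23 in liver. Its liver values were 0.19, 0.52, 0.26 and -0.045 (unadjusted p 0.0919), and both dye orientations were above 0. Ube2q1 was at -0.30, -0.16, -0.22 and -0.088 in liver, below 0 in all mice (mean -0.19 ± 0.090, unadjusted p 0.0712), and at 0.074 ± 0.11 in brain. Ube2j2, an E2 of the endoplasmic reticulum, was at 0.18 ± 0.16 in liver. Ube2n, which builds signalling chains linked through a lysine of ubiquitin, was at -0.22 ± 0.31 in brain. Ube2c, the mitotic E2 of the anaphase-promoting complex, had the lowest E2 mean in brain, -0.37 ± 0.97, with mice at -1.56, 0.60, -0.73 and 0.22. Ube2f, an E2 for the modifier NEDD8, had a liver-minus-brain difference of -0.29 ± 0.20 (SE).

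The Usp genes had medians of 0.056 in brain over 26 genes and -0.0045 in liver over 28. Usp2, a deubiquitinase whose RNA cycles with the circadian clock, had the smallest liver p of all members. It was at -0.39, -0.44, -0.31 and -0.13, below 0 in all mice, with a mean of -0.32 ± 0.14 (95% interval -0.55 to -0.083), or 19.7% less signal than the pool. The unadjusted p was 0.0160 and the limma adjusted p 0.576. The dyes differed, at 0.064 in Cy5 and -0.70 in Cy3. Its brain mean was 0.065 ± 0.15, and liver minus brain was -0.38 ± 0.15 (SE; unadjusted p 0.0262, and 0.0579 with the mouse as a block). The hour of tissue collection was not tested.

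Usp20 was at -0.26, -0.37, -0.32 and 0.069 in liver (mean -0.22 ± 0.20, unadjusted p 0.0863). Usp10, which acts on p53, was at 0.55, -0.050, 0.22 and 0.58 (mean 0.33 ± 0.30, unadjusted p 0.0514), but at -0.31 in Cy5 and 0.96 in Cy3. In brain Usp15 was at 0.20, 0.070, 0.77 and 0.36, above 0 in all mice (mean 0.35 ± 0.30 over 4 probes, unadjusted p 0.0559). Usp12 was at 0.088, 0.18, 0.41 and 0.47, also above 0 in all mice (mean 0.29 ± 0.18 over 3 probes, unadjusted p 0.0601). The probes of Usp12 disagreed in sign in brain, at 0.80 (2 mice only), -0.075 and 0.41. Those of Usp15 were between 0.055 and 0.89. Both had both dye orientations above 0 in brain, and in liver both were near 0, at -0.0012 and -0.0078. Usp9x, an X-linked deubiquitinase, had the lowest Usp mean in brain, -0.21 ± 0.26.

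A few Usp genes varied widely between mice. Usp26, a gene known from testis, was at 1.69, 0.40, -0.92 and 2.81 in brain (mean 0.99 ± 1.61). Usp21 in liver was between -1.34 and 2.40 (mean 0.41 ± 1.64). Usp18, an interferon-induced protease that removes ISG15, was at -1.24, 0.86, -0.96 and 0.74 in brain and at -0.13, -0.44 and 1.32 in the liver of mice 2 to 4. These 3 genes cross 0 between mice of 1 tissue.

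**Figure D4:**
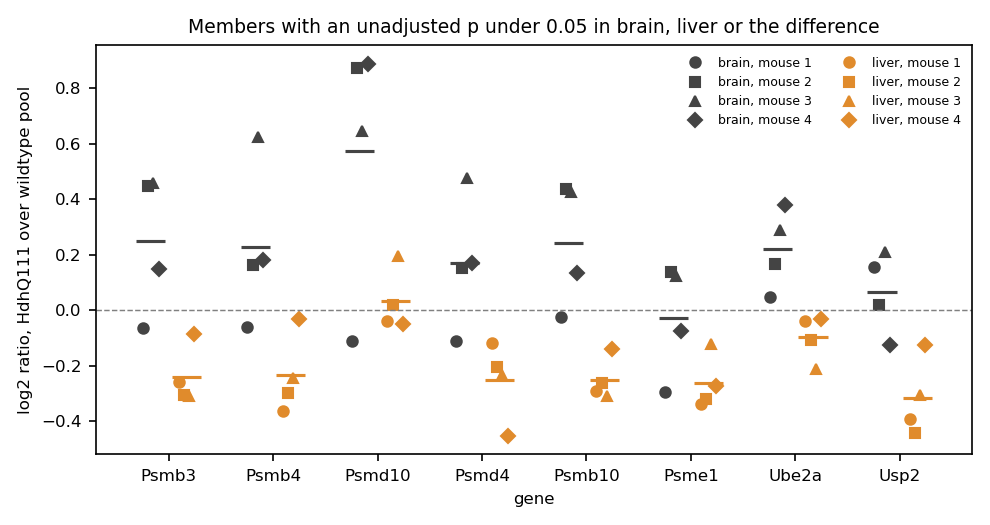
Log2 ratio (y axis, HdhQ111 over wildtype pool) of the 8 members with an unadjusted p under 0.05 in brain, liver or the difference, by mouse (marker shape) and tissue (grey brain, orange liver), with the mean of 4 mice as a bar. Psmb3, Psmb4, Psmd4, Psmb10, Psme1, Ube2a and Usp2 have all 4 livers below 0, and Psmd10 has 3 of 4 brains above 0.6.

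Across all groups, 17 of 85 members with 4 values (20.0%) were below 0 in all 4 livers (background 14.2%) and 3 were above. For liver minus brain 13 of 79 were below 0 in all 4 mice (background 13.5%) and 0 were above. In brain 4 of 80 (5%) were above in all mice (background 6.1%) and 1 below. The 7 members with an unadjusted p under 0.05 for liver minus brain were Psmb10, Psmb3, Psmb4, Psmd10, Psmd4, Ube2a and Usp2. These p values set 4 brain values against 4 liver values without the mouse as a block, though 1 mouse enters both sides. In limma with the block, Psmd4 (0.0509), Ube2a (0.0802) and Usp2 (0.0579) had unadjusted p values over 0.05. Among probes with values in at least 3 mice, those of 1 gene differed by a median of 0.16 in brain over 23 genes. In liver the median was 0.20 over 24 genes, and both are about the size of the values described. The largest differences were 0.84 in brain (Usp15) and 0.90 in liver (Ube2k). Probes with fewer mice also entered the averages, and some lay further apart in brain. Those of Ube2r2 were at -1.73 (1 mouse) and -0.0083 (3 mice). Psme3ip1 had probes at 0.99 (2 mice) and -1.06 (1 mouse).

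Other genes of the pathway, taken from lists by function, were also read, and 0 of them passed adjustment. Of 6 proteasome assembly and inhibitor genes, 6 were above 0 in brain (median 0.13) and 5 were below 0 in liver (median -0.12). Of 8 ubiquitin and ubiquitin-like modifiers, 7 were above 0 in brain (median 0.082) and 7 below 0 in liver (median -0.17). Without mouse 3 the brain medians of these lists were 0.028 (5 of 6 above 0) and -0.014 (4 of 8 above 0). In liver 2 of the modifiers were lower at an unadjusted p under 0.05 (background 5.24%), Nedd8 at -0.29 ± 0.19 and Sumo3 at -0.80 ± 0.66 over 3 mice. E3 ligases had medians of 0.0047 in brain over 39 genes and -0.041 in liver over 39, with 1 higher in each tissue at an unadjusted p under 0.05, near the background of 1.89% in brain and 3% in liver. Deubiquitinases outside the Usp family had -0.0044 over 22 and 0.024 over 23. Shuttle and segregase proteins, which carry or extract ubiquitinated proteins, had 0.039 over 16 and -0.071 over 16.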

How the data were processed

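The authors deposited 1 normalized log ratio per probe and array for 16 2-colour cDNA arrays. The deposited values were read as log2 ratios, although no header states the base. Per the labels' protocols, Cy3 or Cy5 was coupled to the cDNA after reverse transcription of total RNA. How the spots were scanned, background-corrected and normalized is not given in the sources used here. Precision is limited by the number of arrays. Values over 10 in size, taken as ratios against an empty channel, were treated as missing (0 to 2 member probes per array).

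A mouse's value was the mean of both dye orientations, and probes of a gene were averaged. Arrays were taken as already turned one way, because over 20476 probes the differences within dye pairs were shared by brain and liver (rho 0.39), unlike their means (rho -0.0099). Symbols came from the platform annotation, where 12771 of 20794 probes had 1 symbol, 0 had several and 8023 had none. They were placed 11 rows from the values, an offset that no source states. All 88 member symbols are current.

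Genes with at least 3 mice were tested two-sided against 0 by lmFit and eBayes of limma 3.58.1 under R 4.3.3, with Benjamini-Hochberg adjustment over all genes at 0.05. The script was tested on simulated data. The pool is 1 control sample, so the tests leave out the spread among wildtype mice. Liver minus brain was fitted without a block, with the mouse as a block as an alternative, a valid pairing since both tissues came from the same mice. Brain and liver deviations of 1 mouse correlated by 0.058, -0.0015, 0.084 and 0.036 over 7435 genes. Named genes were the immunoproteasome genes, the subunits they replace and, in each of the core, regulatory, E1, E2 and Usp sets, the 3 smallest p and the highest and lowest mean. Psme3 is named beside Psme1 outside that rule, as the other cap. Members, lists and tests were chosen with earlier results of these data known. Alternatives were array centring, quantile normalization, floor values kept, 1 array per mouse, probe medians, single probes, the number of mice, a robust prior, single dye orientations, unshifted symbols, the Cy3 sign turned and leaving out each mouse. Promoters came from a RefSeq table.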

Additional observations from a re-analysis of the deposited data

Results flagged for a closer look

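Ube2a was above 0 in the brain of all 4 mice and below 0 in the liver of all 4, and its liver-minus-brain difference was -0.32. The difference itself was tested and did not pass adjustment (limma, adjusted p 0.677). Its 2 probes had opposite signs in liver, at -0.30 and 0.10. It was the 1 member with this pattern, where 74 of 7435 genes had it. Among 57 sets of mouse values, of named genes and of group medians, 0 held a mouse apart from the other 3 by Dixon's test. Sets with fewer than 4 values could not be tested this way.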

How the results depend on the processing

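The counts of members past the adjusted threshold were 0 in brain, liver and the difference under every alternative for which they were taken. They were not taken for single dye orientations, unshifted symbols or the turned Cy3 sign. With that sign turned, 24 of 8803 genes passed adjustment in liver, and members among them were not counted. Of 13 named values with an unadjusted p under 0.05, 13 kept their direction in every alternative run on single genes. In these alternatives 0 of the 13 stayed under 0.05 throughout. Single probes, single dye orientations, unshifted symbols and the turned Cy3 sign were not among them. By dye orientation in liver, the sign differed for Psmd4 and Usp2 and held for Psmb3, Psmb10 and Psme1. With the mouse as a replicate block, 5 members in place of 7 were lower for liver minus brain at an unadjusted p under 0.05, and no adjusted call changed. Members higher in brain numbered 1, and 3 with centred arrays, 2 with all 4 mice needed, 3 with single probes, 2 with quantile normalization and 0 to 5 with a mouse left out. Members lower in brain numbered 0, and 1 where 1 array of a mouse was enough. Members higher in liver numbered 0, and 1 with centred arrays, 1 with all 4 mice needed, 1 with quantile normalization and 1 to 2 with a mouse left out. Members lower in liver numbered 5, and 9 with single probes and 0 to 5 with a mouse left out. For liver minus brain, leaving out a mouse gave 0 to 1 higher and 1 to 8 lower. Core genes above 0 in brain numbered 12, and 7 in Cy3 only, 5 with symbols on their own rows and 6 to 13 with a mouse left out (6 of 13 tested without mouse 3). Core genes below 0 in liver numbered 12, and 2 in Cy5 only, 5 with symbols on their own rows and 2 with the Cy3 sign turned. Immunoproteasome genes below 0 in liver numbered 5, and 1 with the Cy3 sign turned. The liver median of the core genes became -0.28 in Cy3 only and 0.20 with the Cy3 sign turned, and that of liver minus brain 0.11 with symbols on their own rows and 0.033 with the sign turned. The regulatory liver median became -0.063 in Cy3 only and -0.068 with symbols on their own rows. The immunoproteasome liver median became -0.061 with symbols on their own rows, 0.051 with the sign turned and -0.25 to -0.12 with a mouse left out. For liver minus brain it became -0.030 in Cy5 only, -0.44 in Cy3 only, -0.082 with symbols on their own rows and 0.14 with the sign turned. The ubiquitin enzyme median became -0.15 in brain in Cy3 only, and in liver 0.064 in Cy5 only, -0.11 in Cy3 only and 0.10 with the sign turned. The cause was not tested where a count or median moved. The arrays give no intensity, so what signal over background limits is unknown.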

Other observations

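Floor-sized ratios were 5 in all on member probes. Usp50 in brain had 2 (16.7 in mouse 2 and 16.8 in mouse 4), Psmd14 in brain 1 (16.8 in mouse 4) and Ube2r2 in liver 1 (16.7 in mouse 2), all on arrays with HdhQ111 RNA in Cy5. Usp12 in brain had 1 of -17.0 in mouse 3, on an array with it in Cy3. The 2 genes matched by symbol alone were near 0 in liver, Psmc3ip at -0.10 ± 0.21 and Psme3ip1 at -0.027 ± 0.21. In brain Psme3ip1 was at -0.32, -0.15, 1.42 and -0.52 over 4 probes, with mouse 3 above the others.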
